A study of Mus musculus with 17 samples.

Results

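The splicing factor and hnRNP genes of single mouse skin cells were taken as every row of the expression table whose symbol begins with Srsf, Hnrnp, Snrp, Sf3a, Sf3b, U2af, Prpf, Lsm, Rbm or Tra2, with a digit after Srsf, Prpf, Lsm and Rbm, together with Magoh and Magohb. This rule found 107 genes among 8446 rows, and GENCODE M21 holds 124 protein-coding genes with such symbols. The 107 include Snrpert, which GENCODE annotates as a processed pseudogene and which is not among the 124. The 107 comprise 12 SR and Tra2 genes, 20 hnRNP genes, 12 snRNP genes with Snrpert counted, 8 SF3 genes, 3 U2AF genes, 13 PRPF genes, 11 LSm genes, 26 RBM genes and the Magoh pair. Symbols, not measured values, chose the members. The RBM symbols denote proteins with an RNA-binding domain, and not all of them act in splicing.

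The cells came from the back skin of adult C57BL/6 mice of the genotype Prrx1-CreERT;Tomato, in which the Prrx1 promoter drives a Cre recombinase that works only with tamoxifen and a Tomato reporter then marks the cell and its descendants. Every mouse had received 2 mg of tamoxifen per 30 g body weight daily for 3 days. After enzymatic digestion of the skin, red cells were sorted and 17 of them were picked singly, and each gave a 3' end library. All 17 cells form 1 group with no untreated or Cre-negative cells beside it, and no animal is named, so the values below are levels and spreads over cells, without tests. A red cell is one with Prrx1 promoter activity at the time of tamoxifen or a descendant of one.

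Introns are removed from pre-mRNA by the spliceosome, which assembles from small nuclear ribonucleoproteins (snRNPs) whose RNAs are held by rings of Sm or LSm proteins. SR proteins bind exons and mostly favour the use of nearby splice sites, hnRNP proteins coat the transcript and often oppose them, and U2AF and SF3 proteins recognise the end of the intron and the branch point. The exon junction complex, of which Magoh and Rbm8a form the core with Eif4a3, marks the spliced product. Dermal fibroblasts, like other cells, need this machinery for nearly every transcript.

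The deposited log-scale numbers were taken to be log2(FPKM + 1), a reading of the values that no label states and on which each FPKM threshold depends. A gene is called detected at FPKM 1 or more, a log2 value of 1. Above the low values every cell had nearly the same distribution, with 4369 rows at FPKM 1 or more in each, so the depth of each library is unknown and a member can be high in a cell only relative to other genes of that cell. Every cell had 13 or 14 of 14 fibroblast marker genes, and 12 of these were found in all 17 cells. Marker lists of 7 other skin cell types had rows for 1 to 6 of their genes and none of these was detected in all cells. Single cells had up to 5 of 6 mural, 3 of 3 adipocyte (all 3 at FPKM 10), 3 of 3 melanocyte and glia, 2 of 3 endothelial and 2 of 2 immune genes with a row, and the part of such transcripts in the member values was not tested. Spearman correlation between cells over 7551 rows ranged from 0.38 to 0.58 (136 pairs), and the most alike were cells 9 and 14. Cell 16 stood apart by the highest share of summed FPKM in ribosomal protein genes (12.8%, median over cells 7.93%). Cells were also read as 3 sets, cells 1 to 5, 6 to 14 and 15 to 17, which come from the values, not from the study's labels. A difference of a gene between these sets is therefore a description and no support for the sets. The number of rows at the lowest value of a cell was 987 to 1711, 871 to 1259 and 1425 to 1766 in these sets. It does not separate cells 1 to 5 from the others.

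Splicing genes were detected in all cells more often than rows at large, and less often than proteasome or ribosomal protein genes. Of the 107 members 31 were detected in all 17 cells (29.0%), against 13% of all rows. The share was 41.7% for proteasome genes and 97.6% for ribosomal protein genes. At FPKM 10 in every cell were 8 members (7.48%), against 5.65% of all rows. A further 28 members were detected in 13 to 16 cells, 17 in 9 to 12 and 26 in 3 to 8. The same bands held 1335, 1529 and 3587 of the 8446 rows. The other 5 members were detected in fewer than 3 cells, as were 10.6% of all rows. No member was missing from all cells, and only 77 of the 8446 rows were. The median over members of the mean log2 level was 3.85, against 1.89 over all rows, 4.97 over 48 proteasome genes and 8.59 over 85 ribosomal protein genes. Without cell 16, 32 members were detected in all remaining cells, against 13.3% of all rows, and the median member level was 3.81.

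**Figure D1:**
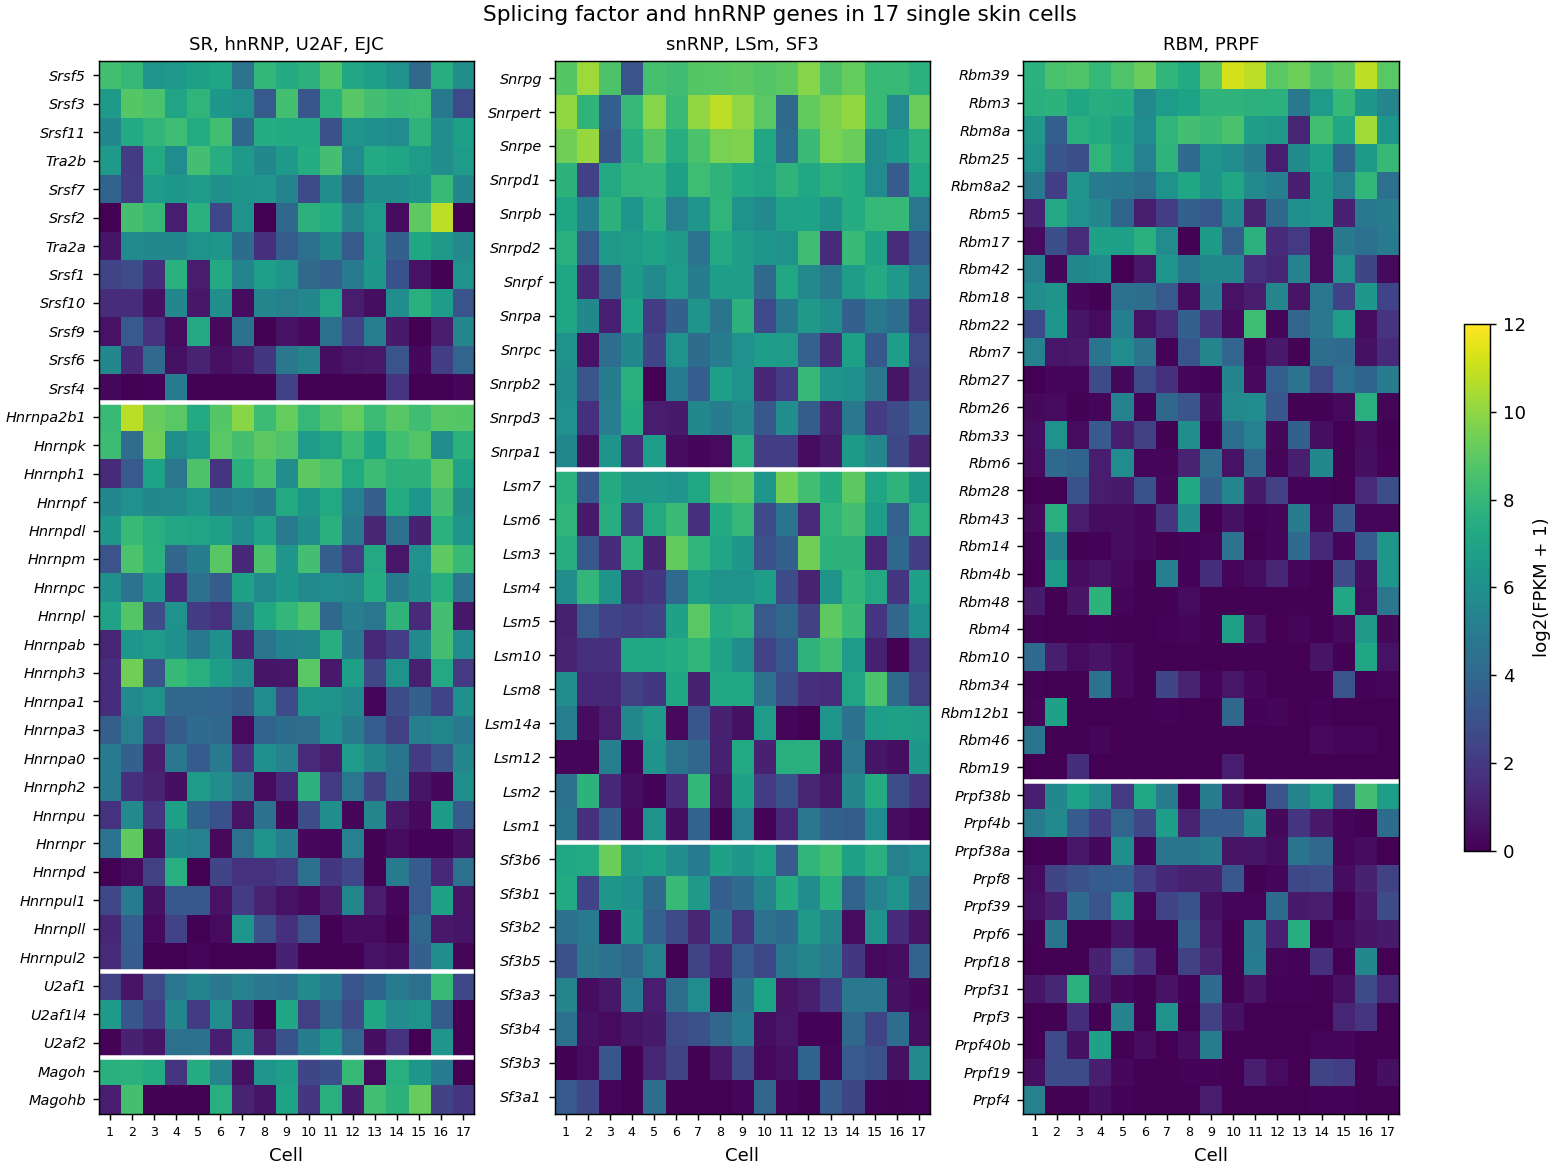
Level of the members (rows, all but 1 of the 107, grouped by class and ordered by mean) in each of the 17 cells (columns), as log2(FPKM + 1) on the colour scale. The top rows of the snRNP, SR and hnRNP classes are high in most cells, and most PRPF and many RBM rows are high in a few cells only.

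**Figure D2:**
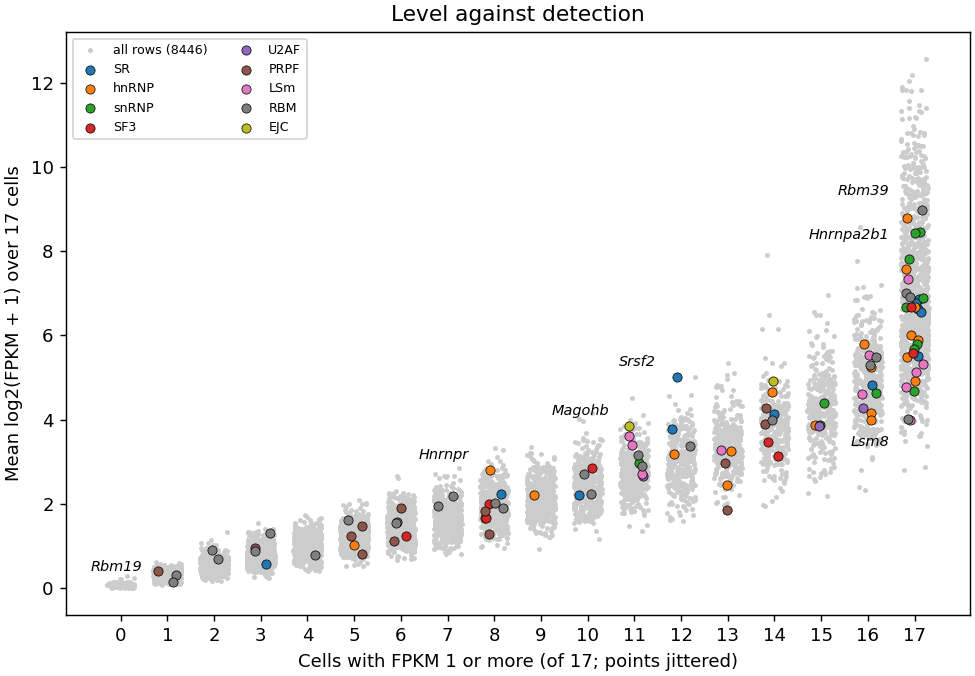
Mean log2(FPKM + 1) over 17 cells (vertical axis) against the number of cells with FPKM 1 or more (horizontal axis, jittered) for all 8446 rows in grey and the 107 members coloured by class. Rbm39 has the highest mean among members (8.99), and Srsf2 is detected in 12 cells with a mean of 5.02.

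The member with the highest mean log2 level, 8.99, was Rbm39, an RNA-binding protein related to U2AF that takes part in splice site choice and in transcription. Its log2 level was lowest in cell 8 (7.32), had a median of 8.90 and was highest in cell 10 (11.20). Cells 10, 11 and 16 were above 10, and the other 14 lay between 7.32 and 9.34. Rbm39 (ENSMUSG00000027620) lies on chromosome 2 from 156147239 to 156180238 on the minus strand of GRCm38. Hnrnpa2b1, an hnRNP that binds purine-rich RNA, followed with 7.34 in cell 5, a median of 8.84 and 10.75 in cell 2, and its SD of 0.77 was the lowest among members detected in all cells. These levels are per length. Multiplied by exonic length they were again the top members, with mean log2 values of 11.78 and 11.51, and Hnrnpk (10.27), Tra2b (9.73) and Srsf3 (9.72) came next.

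Among the 12 SR and Tra2 genes 5 were detected in all cells. Srsf5, an SR protein, ranged from 4.14 (cell 15) over a median of 7.03 to 8.74 (cell 11), and it reached FPKM 10 in all cells. Srsf3, the smallest of the SR proteins, ranged from 2.64 (cell 17) over a median of 7.65 to 8.90 (cell 12). It was below 3.46, the log2 value of FPKM 10, in cells 8, 10 and 17 and at or above 4.86 in the other 14. Srsf11 (median 7.31) and Tra2b (median 6.61), the latter a partner of SR proteins at purine-rich exon enhancers, were at FPKM 10 in 16 cells each, with 2.97 in cell 11 and 2.06 in cell 2 as their lowest values. At the other end, Srsf6 had a median of 1.36 and was detected in 10 cells. Srsf4 was detected in 3 cells only (cells 4, 9 and 14), with 4.96 as its highest value.

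Srsf2, which encodes the SR protein SC35, differed widely between cells. Its log2 level was 0.00 in cell 1, 0.02 in cell 8, 0.08 in cell 17, 0.35 in cell 14 and 0.91 in cell 4, and it was at or above 2.62 in the other 12 cells, up to 9.02 in cell 15 and 10.79 in cell 16. Its SD of 3.66 was the largest of all members, followed closely by that of Magohb (3.64), and 11 of its 12 positive cells reached FPKM 10. The low cells came from all 3 sets of cells. Exons of Srsf2 overlap those of Mettl23 on the opposite strand over 460 bases, and no source used here says whether the counting used strand.

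The promoters of the members with the highest mean level and the largest SD are shown as examples of the elements searched. They run from 250 bases before to 50 bases after the start, from RefSeq on GRCm38.p6, at chr2:156180189-156180488 (minus strand) for the upstream start of Rbm39 and chr11:116853045-116853344 (minus strand) for Srsf2. Capitals mark matches, on either strand, to 6 motifs. The BANP element was searched as TCTCGCGA. The ETS core, bound by a family of transcription factors, was searched as CCGGAAG. The GC box was searched as GGGCGG and the CCAAT box as its name spells it. The TATA box was searched as TATAAA, and the NRF1 site was the last of the 6.
Rbm39: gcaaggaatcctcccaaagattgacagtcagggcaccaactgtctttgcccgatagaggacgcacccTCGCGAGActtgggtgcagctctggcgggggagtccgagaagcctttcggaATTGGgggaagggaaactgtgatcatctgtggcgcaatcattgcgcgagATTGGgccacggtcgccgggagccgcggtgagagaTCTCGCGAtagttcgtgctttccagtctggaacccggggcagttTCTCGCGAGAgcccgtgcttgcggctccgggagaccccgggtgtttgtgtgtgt
Srsf2: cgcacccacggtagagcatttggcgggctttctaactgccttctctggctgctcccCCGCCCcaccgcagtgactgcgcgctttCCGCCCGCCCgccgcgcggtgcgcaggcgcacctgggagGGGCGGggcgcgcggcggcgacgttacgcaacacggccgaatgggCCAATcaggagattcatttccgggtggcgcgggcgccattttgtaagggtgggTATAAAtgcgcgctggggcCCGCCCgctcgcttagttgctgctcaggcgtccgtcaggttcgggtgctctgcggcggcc
This Rbm39 promoter held 3 BANP elements and 2 CCAAT boxes and none of the other motifs, and the promoter of a second, downstream Rbm39 start held none of the 6. The Srsf2 promoter held 1 TATA box, 1 CCAAT box and 4 separate stretches of GC box, with no BANP element. Overlapping matches were merged in both counts. A match is a description of the letters and not evidence of binding.

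Promoter entries were found for 88 of the 107 members, 111 promoters in all. The BANP element stood in 7.21% of them, against 0.995% of all 32851 mouse promoters, 2.44% of the promoters of genes with a row and 4.07% of those of genes detected in all cells. The members with it were Hnrnph3, Lsm14a, Rbm26, Rbm39, Snrpg, Srsf10 and Srsf4, which range from 3 to 17 cells in detection. The CCAAT box stood in 49.5% of member promoters, against 37.5% of those of genes with a row and 37.4% of all promoters. The ETS core stood in 26.1%, against 18.9% and 8.86%, and the GC box in 62.2%, against 64.1% and 35.7%. The TATA box stood in 9.01%, against 7.31% and 13.6%, and the NRF1 site in 0.901%, against 2.18% and 0.971%. Member promoters held a median of 25 CpG dinucleotides, against 21 for genes with a row and 7 for all promoters.

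The hnRNP class had 7 of 20 genes detected in all cells and a median mean level of 4.41. Hnrnpk, which binds C-rich RNA, ranged from 4.27 (cell 2) over a median of 8.22 to 9.36 (cell 3). Hnrnpf, a binder of G tracts, ranged from 3.61 (cell 13) over 5.91 to 8.42 (cell 16), and like Hnrnpk it was at FPKM 10 in every cell. Its relative Hnrnph1 had a higher median log2 level of 7.63 but stood at 1.45 in cell 1, 1.86 in cell 6 and 3.35 in cell 2. Hnrnpll, known for its control of CD45 splicing in lymphocytes, was detected in 8 cells with 6.29 (cell 7) as its highest value. Hnrnpul2 was detected in 5 cells, with 5.99 (cell 16) as its highest.

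Hnrnpr, an hnRNP found in the nucleus and in axons, was either well above FPKM 10 or below FPKM 1. It was between 4.42 and 9.07 in cells 1, 2, 4, 5, 7, 8, 9 and 12, and between 0.06 and 0.56 in the other 9. No value lay between. The mean was 4.98 in cells 1 to 5 and 0.27 in cells 15 to 17, where all 3 cells were low. Both sets were drawn from the values. The gene's exons overlap a gene model on the opposite strand over 715 bases.

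The snRNP genes were the most uniformly present class by level per length, with 8 of 12 detected in all cells. These 8 include Snrpert, annotated as a processed pseudogene. The class had a median mean level of 5.74, against 4.92 for SR genes. Multiplied by exonic length, these medians were 6.87 and 6.81. Snrpg, a subunit of the Sm ring, ranged from 3.05 (cell 4) over a median of 8.78 to 10.24 (cell 2), and cell 4 was the only cell below 7.69. Snrpd1, another ring subunit, had a median of 7.33 and was low in cells 2 (2.32) and 16 (3.46). Snrpb had the narrowest range of the ring, from 4.69 in cell 17 to 8.03 in cell 16. Snrpd3 was the lowest ring subunit, with a median of 3.76 and values below 1 in cells 5 and 6. Snrpa1, which belongs to the U2 snRNP, was detected in 11 cells, 6 of them at FPKM 10 or more with 5.52 to 7.59.

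Of the 8 SF3 genes 2 were detected in all cells. Sf3b6, the subunit that contacts the branch point adenosine, ranged from 3.44 (cell 11) over a median of 6.86 to 9.31 (cell 3). Sf3b1, the large scaffold of the same complex, ranged from 2.43 (cell 2) over 5.91 to 8.15 (cell 6). Sf3b2 and Sf3b5, other SF3b subunits, were detected in 14 cells each with medians of 4.19 and 3.41. Sf3b3 was detected in 8 cells and Sf3a1, of the SF3a complex, in 6. Their medians of 0.81 and 0.15 were below the detection threshold.

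No U2AF gene was detected in all cells. U2af1, the small subunit that reads the AG at the end of the intron, was below 1 in cell 2 only (0.62), with a median of 4.72 and 8.09 in cell 16 as the highest value. U2af2, the large subunit that binds the polypyrimidine tract, was detected in 11 cells with a median of 1.72 and a highest value of 6.34 (cell 11). U2af1l4, a paralog of U2af1, was detected in 15 cells with a median of 3.54. U2af1 and U2af2 tended to rise together, with r = 0.65 and rho = 0.73 over 17 cells, and r = 0.57 without cell 16. In cells 6, 13 and 15, however, U2af1 was at FPKM 10 (4.79, 3.87 and 4.42) and U2af2 was not detected (0.99, 0.51 and 0.00). Among members detected in at least 9 cells, 1.05% of pairs had r of 0.6 or more, against 0.761% over all rows.

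The PRPF class was the lowest, with a median mean level of 1.48, against 1.89 over all rows. Of its 13 genes 9 were detected in fewer than 9 cells, as were 4482 of the 8446 rows. Prpf38b was highest, from 0.00 (cell 11) over a median of 5.10 to 8.40 (cell 16). The kinase Prpf4b had a median of 3.43, and Prpf38a was detected in 6 cells, all of them at FPKM 10. Prpf19, a ubiquitin ligase that gives its name to a spliceosomal complex, reached FPKM 1 in 5 cells and 2.75 at most. Prpf4, a U4/U6 protein, was detected in cell 1 only (5.21).

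LSm proteins hold U6 RNA in the nucleus as the ring of Lsm2 to Lsm8 and act in mRNA decay in the cytoplasm as the ring of Lsm1 to Lsm7. Lsm7 was the highest, from 3.32 (cell 2) over a median of 7.33 to 9.45 (cell 11). Lsm6, with a median of 7.27, was at FPKM 10 in 12 cells and between 0.86 and 2.81 in cells 2, 4, 7, 10 and 12. Lsm3 ranged from 1.20 (cell 5) to 9.41 (cell 12), and Lsm4 from 1.15 (cell 12) to 7.94 (cell 2). Lsm2 and Lsm1 had the lowest means, 3.29 and 2.71, with medians of 2.10 and 3.55. Outside both rings, Lsm14a, a P-body protein, was between 6.68 and 6.80 in cells 15 to 17 and between 0.00 and 6.57 elsewhere. Those 3 cells form 1 of the sets drawn from the values. Lsm12 was at FPKM 10 in 9 cells and at or below 1.11 in the other 8.

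Of the RBM genes 4 of 26 were detected in all cells: Rbm39, Rbm3, Rbm8a and Rbm5. Rbm3, a cold-inducible RNA-binding protein, ranged from 4.85 (cell 13) over 7.42 to 8.04 (cell 15) and was at FPKM 10 in every cell. Rbm25, which acts in splice site choice with U1, had a median of 5.83 and was below 1 in cell 12 only (0.89). Rbm22, a component of the activated spliceosome, was detected in 11 cells, up to 8.28 (cell 11). Rbm26 was detected in 7 cells, up to 7.52 (cell 16). The 4 RBM genes in fewer than 3 cells were Rbm4, in cells 10 (6.82) and 16 (6.48), Rbm12b1, in cells 2 (6.87) and 10 (4.03), Rbm46, known from germ cells, in cell 1 (4.60), and Rbm19, a ribosome biogenesis factor, in cell 3 (1.58).

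Members with a large spread were about as frequent as such rows in the whole table. An SD of 2.5 or more with detection in 4 to 13 cells was found for 10 of 107 members, against 11.1% of all rows. Counted among rows detected in 4 to 13 cells, these were 10 of 44 members, against 19.8% of rows. They were Srsf2, Magohb, Lsm12, Hnrnpr, Lsm14a, Lsm2, Snrpa1, Srsf10, Rbm26 and Rbm22. Srsf10, an SR protein that turns into a general splicing repressor when dephosphorylated, was below 1 in cells 3, 5, 7, 12 and 13 and between 3.13 and 7.61 in the 10 cells at or above FPKM 5. The median SD over members was 2.04, against 1.92 over all rows. With the depth unknown, a value under the threshold means not detected, not absent.

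**Figure D3:**
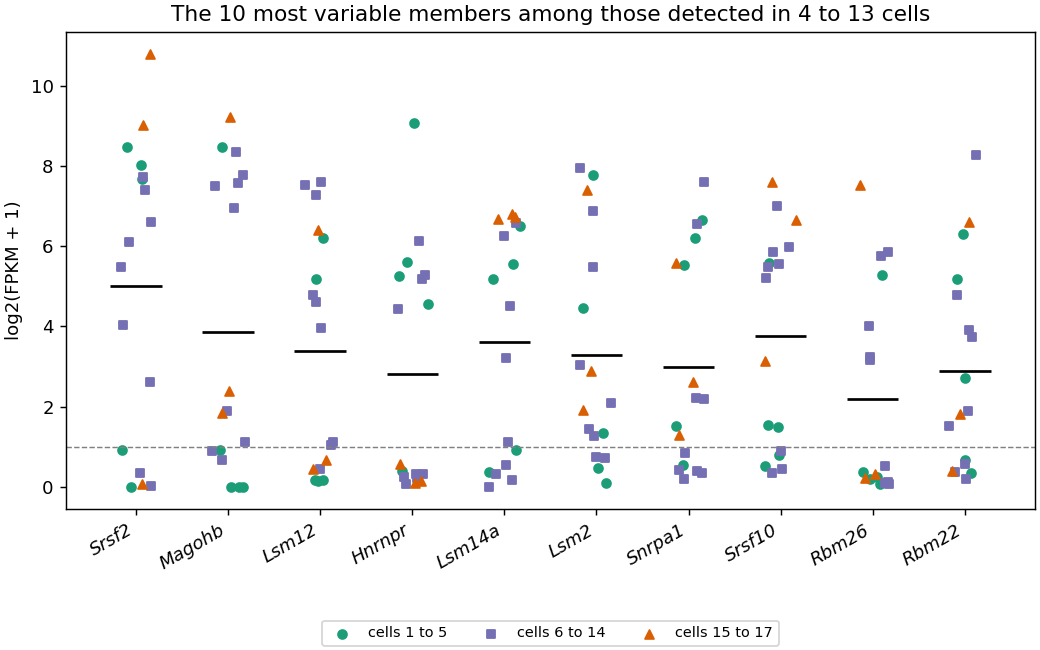
Log2(FPKM + 1) in each of the 17 cells (points, with shape and colour for cells 1 to 5, 6 to 14 and 15 to 17) and the mean (black line) for the 10 members with the largest SD among those detected in 4 to 13 cells, and the dashed line marks FPKM 1. Hnrnpr leaves a gap between 0.56 and 4.42, and Srsf2 spans from 0.00 to 10.79.

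Magoh and Magohb encode nearly the same exon junction protein from different chromosomes, so their joint pattern was examined. Magoh (chromosome 4, 107879755 to 107887424, plus strand) ranged from 0.00 (cell 17) over a median of 6.25 to 8.02 (cell 12) and was detected in 14 cells. Magohb (chromosome 6, 131284388 to 131293244, minus strand) ranged from 0.00 in cells 3, 4 and 5 over a median of 1.90 to 9.21 (cell 15) and was detected in 11 cells. At least 1 of the pair was detected in all 17 cells and both in 8. At FPKM 10 the count was 13 cells with at least 1 and 5 with both (cells 2, 6, 9, 14 and 15). Their levels did not move together, with r = 0.05 and rho = -0.04 over 17 cells.

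The coding sequences of Magoh and Magohb share 81.3% of aligned bases, with 82 substitutions, and the stretch of 90 bases with the most differences is shown to set them beside the closer copies described next, with differing bases in capitals.
Magoh: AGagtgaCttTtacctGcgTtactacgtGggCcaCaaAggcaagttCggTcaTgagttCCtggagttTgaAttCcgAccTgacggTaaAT
Magohb: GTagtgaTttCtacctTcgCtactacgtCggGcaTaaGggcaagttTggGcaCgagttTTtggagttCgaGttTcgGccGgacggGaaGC
The Magoh stretch covers coding bases 5 to 94 and the Magohb stretch 11 to 100, counted from the start codon in GENCODE M21 transcripts on GRCm38.

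Other members have copies that differ far less. Rbm8a, the Magoh partner (chromosome 3, 96629933 to 96633791, plus strand), and Rbm8a2, which lies in an intron of Pld5 (chromosome 1, 175977777 to 175979114, minus strand), share 97.9% of coding bases with 11 substitutions. Snrpe, a subunit of the Sm ring, and Snrpert, annotated as a processed pseudogene, share 98.9% with 3 substitutions. The best local alignment of the whole Rbm8a and Rbm8a2 transcripts, of 2608 and 1338 bases, covered 721 columns with 97.5% identity. The libraries are of 3' ends, and where their reads fell in these transcripts was not examined. For Rbm8a and Rbm8a2 the stretch of 90 bases with the most differences, 5, is shown with differing bases in capitals, since a read of the coding part that spans no such base fits both copies.
Rbm8a: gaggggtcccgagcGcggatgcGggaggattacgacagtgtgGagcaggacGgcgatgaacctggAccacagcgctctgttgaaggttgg
Rbm8a2: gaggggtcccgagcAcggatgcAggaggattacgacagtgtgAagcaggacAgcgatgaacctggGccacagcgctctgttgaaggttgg
These pairs had the highest correlations over cells among members. Rbm8a and Rbm8a2 had r = 0.98 and rho = 0.96, and both were lowest in cell 13 (1.26 and 0.99) and highest in cell 16 (10.32 and 7.94). Snrpe and Snrpert had r = 0.86 and rho = 0.68, with 3.20 and 3.58 in cell 3 and medians of 8.17 and 9.12. Without the 2 cells farthest from the median Snrpe level r was 0.62. These levels are per length, and the exonic lengths are 1372 and 279 bases. Multiplied by length the order reversed, with mean log2 values of 8.27 for Snrpe and 6.63 for Snrpert. No source used here says how reads that fit several places were counted, so the separate values of each copy are uncertain.

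**Figure D4:**
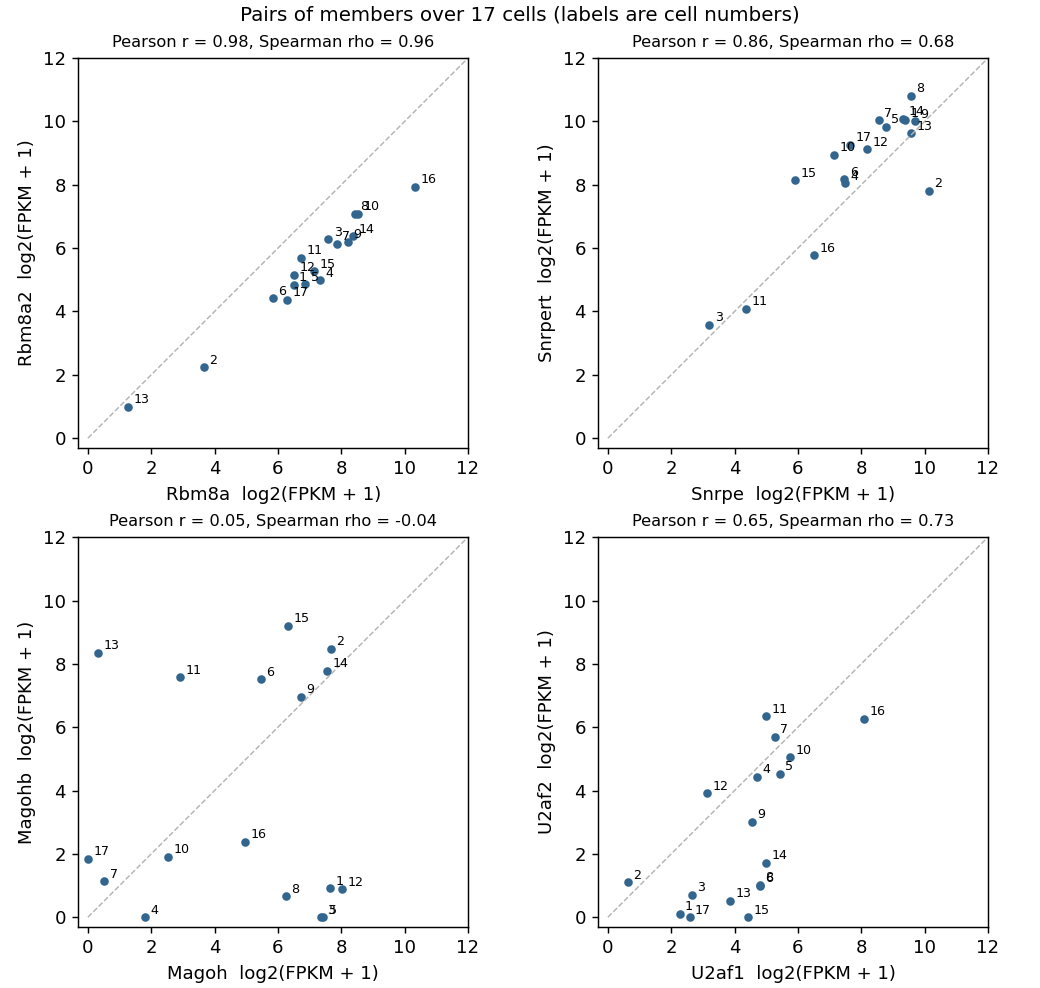
Level of one member against another, both as log2(FPKM + 1), with 1 point per cell and cell numbers, for 4 pairs of members. Rbm8a and Rbm8a2 lie along a line (r = 0.98), Snrpe and Snrpert less tightly (r = 0.86), U2af1 and U2af2 tend to rise together (r = 0.65), and Magoh and Magohb scatter (r = 0.05).

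Whether a cell held transcripts of every subunit of a complex that is among the members was counted next. Subunits outside the symbol rule, such as the SF3b subunit Phf5a, were left out. All 7 genes of the Sm ring were detected in 15 cells, with 1 gene missing in cells 5 and 6, and all 7 were at FPKM 10 in 7 cells. All 7 genes of the Lsm2 to Lsm8 ring were detected in 12 cells, and of the Lsm1 to Lsm7 ring in 8. Both rings were at FPKM 10 throughout in cells 9 and 14 only. Snrpa and Snrpc, proteins of the U1 snRNP, were detected together in 16 cells, and Snrpa1 and Snrpb2 of the U2 snRNP in 9. U2af1 and U2af2 were detected together in 10 cells.

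For the other complexes the member subunits were rarely all detected. The 6 SF3b genes among the members were detected together in cell 9 only, with 4 to 6 per cell. The 5 PRPF genes of the tri-snRNP, which joins the spliceosome before catalysis, were never all detected, with 1 to 3 per cell. Among them Prpf8, the large protein at the catalytic core, was detected in 13 cells but reached FPKM 10 in 2. The exonic length of the PRPF genes has a median of 5671 bases, against 2335 for the snRNP genes and 5898 for the hnRNP genes. Multiplied by length, the PRPF class still had the lowest median, 2.45 on the log2 scale, against 4.12 for RBM, 6.81 for SR and 6.87 for snRNP genes. Over all members the rank correlation of length and level was -0.24, against -0.18 over all rows. With levels multiplied by length it was 0.072 and 0.065. Complete detection also depends on the threshold and on the number of genes in a complex.

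**Figure D5:**
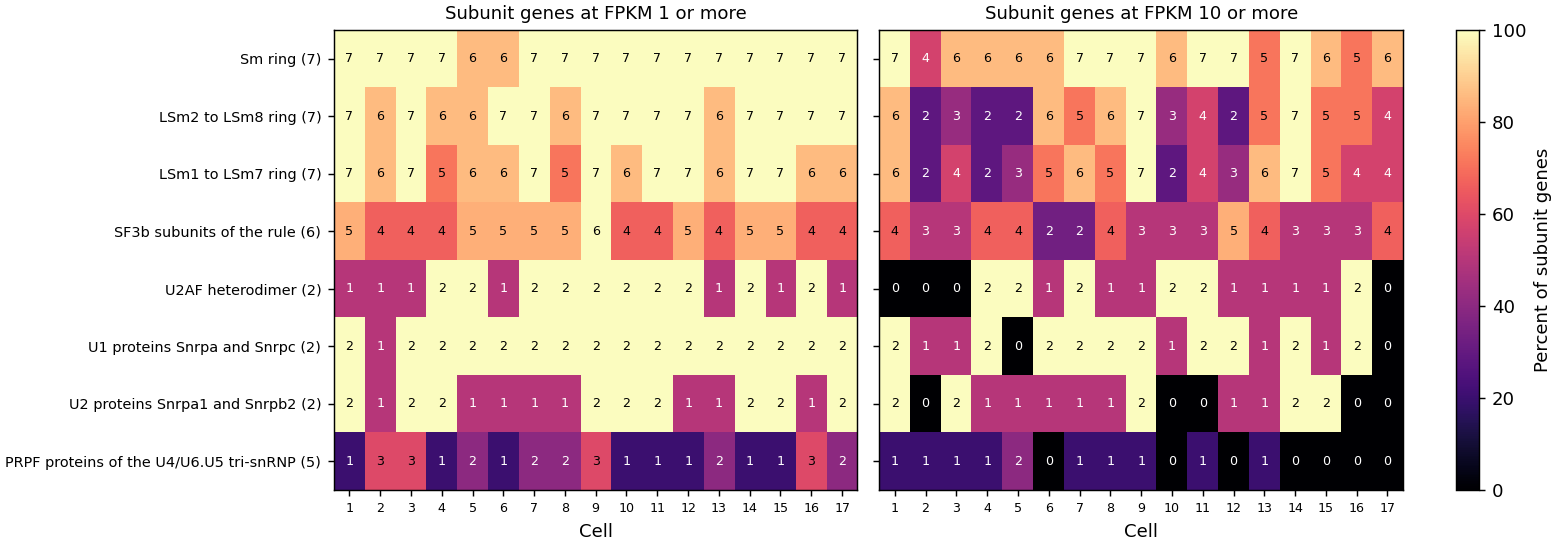
Number of subunit genes in each of the 17 cells, counting only subunits that are among the members. The threshold is FPKM 1 on the left and FPKM 10 on the right, and the colour gives the percent of these subunit genes. The Sm ring is complete at FPKM 1 in 15 cells, and the PRPF genes of the tri-snRNP reach at most 3 of 5.

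Per cell, 69 (cell 13) to 85 (cell 9) of the 107 members were detected, with a median of 76. This was 64.5% to 79.4% of members, against 51.7% of all rows in every cell. The mean level over members was lowest in cell 17 (3.46) and highest in cell 9 (4.45). Members held 0.906% (cell 17) to 2.08% (cell 16) of summed FPKM, with a median of 1.42%. Cell 16 held the highest value of 18 members (16.8%), against 11.5% of all rows, and cell 2 that of 14 members (13.1%), against 8.95% of rows. The number of rows at the lowest value of a cell, 871 to 1766, is the measure of library complexity that remains, and it had r = -0.14 with the member mean over 17 cells.

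The members as a whole did not vary together. The mean pairwise r over 102 members detected in at least 3 cells was 0.0041, against 0.0918 for proteasome genes and 0.167 for ribosomal protein genes. Over all rows it was -0.0000767. The nearly shared distribution of the cells, with a mean over all rows of 2.63 in each, holds that value near 0. It is therefore no independent yardstick. Within classes the mean pairwise r was 0.153 for snRNP genes, which include the Snrpe copies, 0.0960 for LSm genes, 0.0309 for hnRNP genes, -0.0230 for SR genes and -0.0353 for SF3 genes. Among 2850 pairs of the 76 members detected in at least 9 cells, 30 had r of 0.6 or more (1.05%), against 0.761% of such pairs over all rows, and 15 had r of -0.6 or less (0.526%), against 0.701%. After the copies, the highest pairs were Snrpc with Rbm8a2 (0.74) and with Rbm8a (0.71) and Snrpf with Lsm7 (0.72). The last fell to 0.43 without cell 2, where both were low (1.37 and 3.32). The lowest were Lsm8 with Sf3b5 (-0.76), Hnrnpk with Hnrnpu (-0.72) and Hnrnpa1 with U2af1l4 (-0.71). All pairs share the same 17 libraries.

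Between classes, the LSm and hnRNP means ran in opposite directions over cells. Cell 2 had the highest hnRNP mean (5.68) and the lowest LSm (2.89) and snRNP (4.34) means. Cell 14 had the highest LSm mean (6.64) with an hnRNP mean of 3.99, and cell 9 the highest snRNP mean (7.39). Over 17 cells r was -0.65 between the hnRNP and LSm means (rho = -0.65), 0.64 between snRNP and LSm (rho = 0.54) and 0.69 between hnRNP and RBM (rho = 0.62), the 3 strongest of 21 class pairs. Leaving out the 2 cells farthest from the median hnRNP mean gave r = -0.48 for hnRNP and LSm, and leaving out cell 2 alone gave -0.57.

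Gene length moved with this contrast. The LSm genes have a median exonic length of 2753 bases and the hnRNP genes of 5898. Over rows that are neither members nor ribosomal protein genes, the mean of 2374 rows under 3 kb minus that of 2695 rows of 6 kb or more ranged from 0.59 (cell 16) to 1.84 (cell 9) on the log2 scale. Over cells this difference had r = 0.67 with the LSm minus hnRNP mean (rho = 0.62), 0.80 with the snRNP mean and -0.53 with the hnRNP mean. Its part in the class contrast was not tested.

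Other genes of the splicing pathway were read from a list of 101, of which 93 have a row and 8 are not analysed here. Of the 93, 21 were detected in all cells (22.6%, against 13% of all rows), and the median of the 93 mean levels was 3.11, against 1.89 over all rows. The highest were Clk1, a kinase of SR proteins (mean 8.21), Sap18 (7.67), the helicase Ddx5 (7.43), the speckle proteins Son (7.33) and Srrm2 (6.83), and Bud31 (6.86). The most variable in the middle band of detection were Phf5a, an SF3b subunit (SD 3.30, 12 cells), Zrsr2, which acts on minor introns (SD 3.14, 11 cells), the U5 GTPase Eftud2 (SD 3.12, 8 cells) and the export adaptor Alyref (SD 2.98, 12 cells). Of the exon junction proteins beside Magoh and Rbm8a, Eif4a3 was detected in all cells with a mean of 5.17 and Casc3 in 5 cells with a mean of 1.26.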

How the data were processed

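The deposited table holds 1 column for each of 17 cells. The labels' protocols give a SMART-Seq v4 3' DE kit with Nextera XT, and the submitters' processing notes name TopHat2, Cufflinks and GRCm38. Their versions and filters, and any normalisation step, are not given. The deposited values were read as log2(FPKM + 1) from their range, since back-transformed values sum to 592955 in cell 1. Sorted values above 3 differ between cells by at most 0.0165, the form that quantile normalisation gives, so the depth per cell and its precision are unknown.

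The members and lists were chosen with earlier results of these data known. Identifiers of all 107 members matched GENCODE M21, which gave coordinates and exonic lengths as the union of a gene's exons. Of the members, 40 have exons that overlap another gene, 28 of them mostly on the opposite strand, and such values are uncertain without strand. Detection was FPKM 1, with FPKM 5 (2.58) and FPKM 10 (3.46) as alternatives. Means, SDs, Pearson and Spearman correlations over cells are descriptions, and no p-value was computed because the 17 cells, with no animal named, count as 1 sample. No doublet caller was run on the 17 picked cells.

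Genes named are, per class, the 4 highest and 2 lowest means, then the 10 largest SDs among members detected in 4 to 13 cells, every member in fewer than 3 cells, Magoh, Magohb, Srsf2, the 5 highest and 3 lowest correlated pairs, and of related genes the 6 highest means and 4 largest SDs. 1 gene that this rule names and 1 pair of sequences are not reported here. Other members are named to complete a complex, a count or a motif and were picked with their values in view. The comparison of short and long rows was added after seeing the data. Alternatives were another detection threshold, a pseudocount of 0.1, multiplication by length, rescaling of each cell to 1000000, other filters and the omission of cells. Scripts were tested on simulated data. The tools were Biopython 1.88, matplotlib 3.10.9, scipy 1.17.1, pandas 2.3.3 and numpy 2.4.6 under Python 3.11.15.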

Additional observations from a re-analysis of the deposited data

How the results depend on the processing

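Of the recomputed values, 118 stayed within the set limits of the reported ones and 21 moved beyond them. The count of members detected in all cells depends on the threshold: it was 73 above the lowest value of each cell, 14 at FPKM 5 and 8 at FPKM 10, and for the 93 related genes 57, 9 and 5, where 43.4%, 7.20% and 5.65% of all rows qualified. The 5 related genes are 5.38% of their list, below the share of all rows. After multiplication by length 46 members and 36 related genes qualified, against 22.5% of all rows. The median member level was 3.29 with a pseudocount of 0.1, 5.14 after multiplication by length and 4.37 after rescaling, always above that of all rows (0.62, 3.18 and 2.28). The count of variable members was 40 with a pseudocount of 0.1, 22 after multiplication by length, 19 after rescaling and 22 without the filter on cells. It was 22 without cells 1 to 5 and 17 without cells 15 to 17, both chosen after seeing the data. In these alternatives 50.5%, 30.2%, 17.7%, 16.5%, 16.8% and 14.8% of all rows qualified. The mean pairwise correlation was 0.00824 over members detected in at least 9 cells.

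Leaving out each cell in turn gave 31 to 34 members in all cells, a median level of 3.57 to 3.90 and 75.5 to 76 members per cell. It gave 21 to 23 related genes and 12 to 17 variable members, with 16, 16 and 17 without cells 1, 3 and 12. Of all rows, 13.1% to 13.6% were then detected in all cells and 12.1% to 12.6% were variable. With all 17 cells these shares were 13% and 11.1%. The mean pairwise correlation was between -0.00262 (without cell 9) and 0.00541. The band of 4 to 13 cells was kept with fewer cells, so that more rows fall in it. No paired analysis was possible because all cells belong to 1 group.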
